A study of Mus musculus with 15 samples.

Results

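Protocadherins are cell-surface adhesion proteins of the cadherin superfamily, and their transcripts were followed in Purkinje cell-enriched RNA of the mouse cerebellum from birth to adulthood. Members were all genes whose symbol in the array's annotation starts with Pcdh, taken from probe sets with a single symbol, with the probe set of the highest mean over all arrays standing for its gene. This gave 34 of 19500 measured genes, from 35 probe sets. Of these, 22 were clustered protocadherins and 12 were non-clustered (Pcdh1, Pcdh7, Pcdh8, Pcdh9, Pcdh10, Pcdh11x, Pcdh12, Pcdh15, Pcdh17, Pcdh18, Pcdh19 and Pcdh20). The clustered members were Pcdhb1 to Pcdhb22, that is the beta cluster alone. RefSeq lists 14 Pcdha and 22 Pcdhg genes, but no probe set of the annotation carries such a symbol, so the alpha and gamma clusters and the C-type genes within them were not analysed here.

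All 15 arrays came from Tg(Pcp2-L10a-Egfp) mice, with 3 arrays per age. Ages are days after birth, from P0 (newborn) through P7, P15 and P21 to P56 (adult). The Pcp2 promoter, which is active in Purkinje cells, drives an EGFP-tagged L10a protein of the ribosome, so that antibodies against the tag pull down ribosomes and their RNA (translating ribosome affinity purification). Cerebella were pooled before homogenisation, and the labels give no sex, strain background, treatment or number of animals per pool. They do not say whether the 3 arrays of an age come from separate pools, so the p-values measure the spread between these arrays, which may be technical. No unpurified tissue or untagged control was used here, and no value is an enrichment over the cerebellum.

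Clustered protocadherin genes lie in tandem arrays, and each neuron uses a few of them, chosen at their own promoters with the help of distant enhancers, CTCF and cohesin. Their proteins join in combinations on the membrane and bind the same combination on a facing membrane, which lets sister branches of a neuron recognise each other, a process studied in Purkinje cell dendrites. Beta genes are single coding exons and lack the shared intracellular end of the alpha and gamma proteins. Non-clustered protocadherins are scattered through the genome, and most belong to the delta-1 or the delta-2 group, which differ in the conserved motifs of their cytoplasmic tails. They take part in axon growth, cell sorting and synapse formation.

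Values are log2 signals as deposited, so a difference of 1 is a doubling. No background level is given for the arrays, and a signal under an array's lower quartile (5.86 to 6.01) is not shown to be above background. Replicate arrays correlated at r = 0.994 or above over 22092 probe sets. The captured RNA differed between P0 and the later ages: Pcp2 was at 8.53 ± 0.07 at P0 (SD, n = 3), 13.16 ± 0.01 at P7 and 13.71 ± 0.04 at P56. The mean of 11 Purkinje cell markers was 8.41 to 8.48 on the P0 arrays, against 13.08 to 13.12 at P7 and 13.31 to 13.34 at P56. Several marker lists of other cells went the other way from P0 to P7, with endothelial and mural markers (9 of 9 measured called lower) at 9.49 to 9.56 and then 7.42 to 7.46, and interneuron markers (8 of 8 called lower) at 10.59 to 10.61 and then 8.51 to 8.69. Meningeal and choroid plexus markers (9 of 9 called lower) went from 9.77 to 9.80 at P0 to 8.02 to 8.05 at P7. Over all genes 27.4% were called lower and 34.2% higher from P0 to P7. Granule cell markers were instead mostly higher at P7 (6 of 9 called higher and 1 lower, from 8.93 to 8.97 up to 10.72 to 10.85). Oligodendrocyte lineage markers were mixed (5 of 9 higher and 4 lower), and their mean went from 8.07 to 8.20 up to 8.97 to 9.12. Comparisons with P0 therefore set arrays of unlike marker content side by side, and the part of this in the results below was not tested. In such bulk RNA, fewer cells of a type and less RNA per cell cannot be told apart.

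RefSeq (GRCm38.p6) windows of 300 bases, 250 before to 50 after the start, were found for 9 members, all non-clustered. The 3 printed belong to Pcdh18 (chr3:49757267-49757566, minus strand) and Pcdh15 (chr10:73821617-73821916, plus strand), which of these 9 fell most from P0 to P56, and to Pcdh20 (chr14:88471347-88471646, minus strand), the non-clustered member that rose. Capitals mark CG dinucleotides, the site of DNA methylation.
Pcdh18: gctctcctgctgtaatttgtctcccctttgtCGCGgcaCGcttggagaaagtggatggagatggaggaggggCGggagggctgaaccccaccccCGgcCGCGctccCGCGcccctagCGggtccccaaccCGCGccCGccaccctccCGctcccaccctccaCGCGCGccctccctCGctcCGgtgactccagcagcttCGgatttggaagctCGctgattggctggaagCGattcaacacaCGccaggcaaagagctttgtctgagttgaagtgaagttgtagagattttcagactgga
Pcdh15: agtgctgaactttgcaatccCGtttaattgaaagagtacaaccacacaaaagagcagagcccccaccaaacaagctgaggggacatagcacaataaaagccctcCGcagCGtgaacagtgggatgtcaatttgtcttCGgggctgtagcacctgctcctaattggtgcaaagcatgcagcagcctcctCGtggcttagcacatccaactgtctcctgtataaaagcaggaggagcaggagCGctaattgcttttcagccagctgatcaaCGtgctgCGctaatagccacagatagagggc
Pcdh20: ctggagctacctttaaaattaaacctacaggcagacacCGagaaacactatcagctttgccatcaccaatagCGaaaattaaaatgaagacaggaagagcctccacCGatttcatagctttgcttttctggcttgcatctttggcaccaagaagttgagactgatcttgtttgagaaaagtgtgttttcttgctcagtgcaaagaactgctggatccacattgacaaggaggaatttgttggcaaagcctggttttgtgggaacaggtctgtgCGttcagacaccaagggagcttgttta
The windows hold 23 CG in Pcdh18, 8 in Pcdh15 and 4 in Pcdh20. Among 32851 RefSeq promoters the median was 7, and 21.5%, 48.6% and 68.6% of them had at least as many as these 3. The other windows held 26 CG in Pcdh17, 24 in Pcdh10, 18 or 19 in Pcdh9, 18 in Pcdh19, 14 in Pcdh8 and 11 in Pcdh7. Among the members with a window, those that fell thus had from 8 to 26 CG, and Pcdh20 had fewer than any of them. No window was found for Pcdh1, Pcdh11x or the clustered members that fell, and Pcdh20 is a single gene. This is a description of sequence, and no methylation was measured.

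Both classes were lower in the adult than at birth, but by different courses. From P0 to P56, 18 of 22 clustered members fell and 0 rose, and 10 of 12 non-clustered members fell and 1 rose (limma, Benjamini-Hochberg adjusted p under 0.05; also 0 clustered rises at an unadjusted p under 0.05). The background for these counts is high, with 34.7% of the 19500 genes lower and 40.5% higher. The median change was -0.87 over the clustered and -2.71 over the non-clustered members, against 0.09 over all genes. The non-clustered members dropped mainly in the first week, whereas most clustered members peaked at P15 and dropped after P21, as the plot of age means shows. Setting the array medians to 0 moved the median change of all probe sets from P0 to P56 from 0.08 to 0.41, and from -0.03 to 0.21 between P21 and P56 and from 0.0018 to 0.27 between P7 and P56. Under that scaling 17 clustered members fell and 4 rose from P0 to P56, and the clustered median was -0.55. The share of all genes called was not counted under this or any other alternative setting, so counts under them lack that background.

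**Figure D1:**
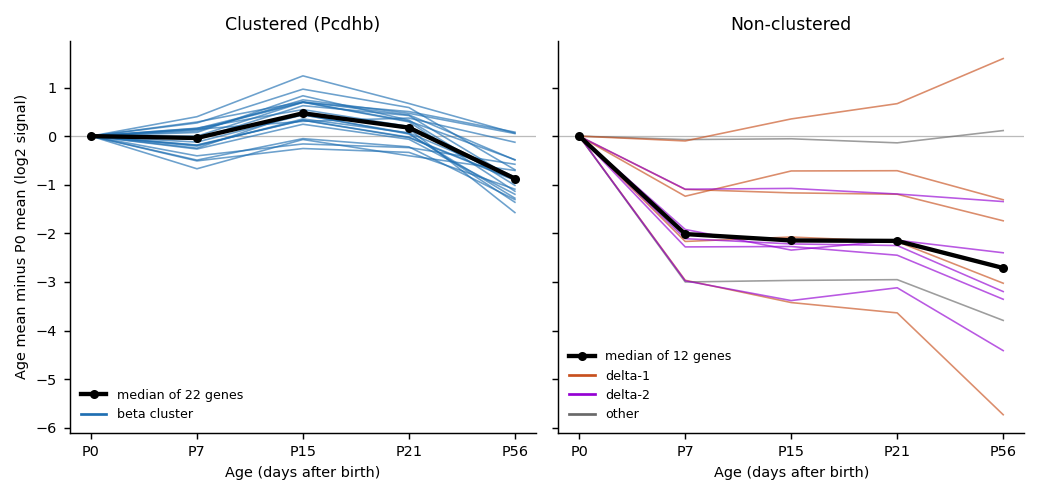
Mean log2 signal of each gene at each age minus its P0 mean (thin lines, coloured by group) and the median over genes (black), with age in days on the x axis, for 22 clustered genes (left) and 12 non-clustered genes (right). The clustered lines stay within 0.67 of their P0 level at P7 and 17 of them are highest at P15, and most non-clustered lines drop by P7.

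From P0 to P7, 10 of 12 non-clustered members fell, 0 rose (also 0 at an unadjusted p under 0.05), and all 10 that fell did so by more than 1 log2 unit with arrays that did not overlap. Over all genes 27.4% were called lower and 34.2% higher, and separation of arrays was not counted over all genes. The class median was -2.02, against 0.06 over all genes. Among the delta-1 genes (Pcdh1, Pcdh7, Pcdh9, Pcdh11x and Pcdh20), 4 of 5 fell, and among the delta-2 genes (Pcdh8, Pcdh10, Pcdh17, Pcdh18 and Pcdh19), 5 of 5 fell.

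Pcdh11x, an X-linked delta-1 gene, changed by the widest margin of all members. Its log2 signals were 11.79, 11.77 and 11.66 at P0, 8.79, 8.78 and 8.74 at P7, 8.26, 8.29 and 8.39 at P15, 8.27, 7.81 and 8.22 at P21 and 5.75, 5.997 and 6.27 at P56. Every P0 array was high, P7 lay above P15 without overlap, P15 and P21 overlapped, and 1 of the 3 P56 arrays lay under the lower quartile. From P0 to P7 it fell by 2.97 (SE 0.12, adjusted p = 4.37e-13), and it fell again from P7 to P15 (-0.46, SE 0.12, adjusted p = 0.00899) and from P21 to P56 (-2.10, SE 0.12, adjusted p = 2.06e-10). In all, the difference between P56 and P0 was -5.73 (SE 0.12, adjusted p = 6.65e-17). It was thus the member with the largest fall after P21 as well as over the whole course.

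Pcdh7, a delta-1 protein that acts in axon outgrowth, had log2 signals of 10.73, 10.69 and 10.63 at P0, 8.45, 8.56 and 8.55 at P7, 8.64, 8.56 and 8.63 at P15, 8.49, 8.50 and 8.56 at P21 and 7.53, 7.74 and 7.70 at P56. The P0 arrays stood above all others, P7 and P21 overlapped, and the P56 arrays were lowest. P15 met P7 and P21 only at 8.56, a value repeated to the last digit on an array of each of these ages. The fall was -2.17 (SE 0.07, adjusted p = 1.7e-14) in the first week and -0.86 (SE 0.07, adjusted p = 1.11e-08) after P21.

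Pcdh1, a delta-1 protein known from airway epithelium, was dim after birth. Its arrays read 7.73, 7.90 and 7.98 at P0, 6.80, 6.70 and 6.81 at P7, 6.69, 6.69 and 6.72 at P15, 6.65, 6.65 and 6.72 at P21 and 5.95, 6.30 and 6.12 at P56, where 1 array was under the lower quartile. P0 was high, P7 to P21 overlapped and P56 was low, with falls of -1.10 (SE 0.08, adjusted p = 2.26e-09) from P0 to P7 and -0.55 (SE 0.08, adjusted p = 2.58e-05) from P21 to P56.

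Pcdh9 was the delta-1 member that recovered in part after its first fall. Its log2 signals were 11.89, 11.93 and 11.91 at P0, 10.58, 10.72 and 10.72 at P7, 11.18, 11.13 and 11.26 at P15, 11.17, 11.18 and 11.24 at P21 and 10.40, 10.64 and 10.75 at P56. The P15 and P21 arrays lay between those of P0 and P7, without overlap with either, and the P56 arrays overlapped those of P7. It fell by 1.24 (SE 0.08, adjusted p = 3.07e-10) to P7, rose by 0.52 (SE 0.08, adjusted p = 0.000175) to P15 and fell by 0.60 (SE 0.08, adjusted p = 7.03e-06) after P21. It is the only member with 2 probe sets, and the other gave -1.23 ± 0.08, 0.53 ± 0.08 and -0.39 ± 0.08 (SE) for these 3 steps, the same directions.

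Pcdh20, the fifth delta-1 gene, took the opposite course. The arrays read 6.83, 6.75 and 7.19 at P0, 6.82, 6.81 and 6.84 at P7, 7.39, 7.14 and 7.30 at P15, 7.80, 7.56 and 7.42 at P21 and 8.48, 8.50 and 8.59 at P56. P0 and P7 overlapped, and from P7 on each age lay above the one before it without overlap. It rose from P7 to P15 (0.45, SE 0.11, adjusted p = 0.00521) and from P21 to P56 (0.93, SE 0.11, adjusted p = 1.22e-06), while the step between them (0.31, SE 0.11, adjusted p = 0.0552) missed the threshold. Over the whole course the difference was 1.60 (SE 0.11, adjusted p = 3.3e-10), the only rise from P0 to P56 that passed the test among the 34 members on the deposited scale. Purkinje cell markers were 4.41 higher by their median over the same interval, and from P7 to P56 8 of 11 rose and 2 fell. Over all genes 24.6% were higher and 34.9% lower from P7 to P56. The part of these marker changes in the Pcdh20 rise was not tested.

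Among the delta-2 genes, Pcdh18 and Pcdh19 showed the widest falls. Pcdh18, whose protein binds the reelin adaptor Dab1, had arrays at 10.30, 10.48 and 10.49 at P0, 7.35, 7.51 and 7.48 at P7, 6.95, 7.03 and 7.14 at P15, 7.27, 7.29 and 7.35 at P21 and 6.38, 5.82 and 5.83 at P56. The P56 arrays were low enough that 2 of 3 lay under the lower quartile. The falls were -2.98 (SE 0.12, adjusted p = 2.99e-13) to P7, -0.41 (SE 0.12, adjusted p = 0.0164) to P15 and -1.29 (SE 0.12, adjusted p = 5.37e-08) after P21.

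Pcdh19, an X-linked gene mutated in an epilepsy that affects girls, had log2 signals of 10.53, 10.52 and 10.48 at P0, 8.23, 8.17 and 8.31 at P7, 8.31, 8.16 and 8.26 at P15, 7.99, 7.99 and 8.21 at P21 and 6.93, 7.23 and 7.31 at P56. It was high at birth and lowest in the adult, and its P7 and P15 arrays overlapped. It fell by 2.28 (SE 0.09, adjusted p = 3.74e-13) to P7 and by 0.91 (SE 0.09, adjusted p = 1.93e-07) after P21. Xist, the RNA of the inactive X chromosome, was at 11.89 ± 0.03 (SD, n = 3) at P0, 6.55 ± 0.07 at P7 and 5.999 ± 0.19 at P56, so the P0 pools differ from the others in this RNA too. The 724 other measured X-linked genes had a median change of 0.03 from P0 to P7, with 31.4% called lower. The part of the Xist difference in Pcdh11x and Pcdh19 was not tested.

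Pcdh10, which recruits the actin regulator WAVE through Nap1, had signals of 11.45, 11.44 and 11.41 at P0, 9.30, 9.38 and 9.30 at P7, 9.17, 9.14 and 9.33 at P15, 9.13, 9.16 and 9.26 at P21 and 8.12, 8.20 and 8.38 at P56. P0 was high, the middle ages overlapped from one to the next, and P56 was low. The falls of -2.11 (SE 0.08, adjusted p = 9.31e-14) to P7 and -0.95 (SE 0.08, adjusted p = 1.17e-08) after P21 had nearly the sizes seen in Pcdh7. Pcdh8, a protein induced by neuronal activity that controls N-cadherin uptake, read 8.64, 8.92 and 8.76 at P0, 6.89, 6.89 and 6.78 at P7, 6.28, 6.44 and 6.57 at P15, 6.78, 6.44 and 6.68 at P21 and 6.26, 6.48 and 6.38 at P56. It fell by 1.92 (SE 0.10, adjusted p = 1.22e-11) to P7 and by 0.43 (SE 0.10, adjusted p = 0.00436) to P15, and its arrays at P21 and P56 overlapped. The last step (-0.26, SE 0.10, adjusted p = 0.0348) was called but did not pass with array medians set to 0 (-0.02).

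Pcdh17, a delta-2 protein of synapses and axons, kept the highest share of its birth level among the delta-2 genes. It read 11.08, 11.02 and 11.12 at P0, 9.95, 10.00 and 9.98 at P7, 9.93, 9.93 and 10.12 at P15, 9.81, 9.99 and 9.84 at P21 and 9.62, 9.81 and 9.74 at P56. After the fall to P7 (-1.09, SE 0.08, adjusted p = 5.73e-10), no single step passed the test. The difference between P56 and P7 was called as -0.25 (SE 0.08, adjusted p = 0.00765) but was 0.01 with array medians set to 0.

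The remaining 2 genes lie outside the delta groups. Pcdh15, a component of the tip links of hair cells, read 10.04, 9.98 and 10.09 at P0, 7.06, 7.10 and 6.95 at P7, 7.11, 6.99 and 7.11 at P15, 6.9995, 7.11 and 7.15 at P21 and 6.16, 6.50 and 6.08 at P56. Its fall of -3.00 (SE 0.09, adjusted p = 1.18e-14) in the first week was the largest among the 34 members, close to those of Pcdh18 and Pcdh11x, and it fell by 0.84 (SE 0.09, adjusted p = 5.27e-07) after P21. Pcdh12, an endothelial adhesion protein, read 6.43, 6.28 and 6.58 at P0, 6.40, 6.27 and 6.40 at P7, 6.36, 6.38 and 6.38 at P15, 6.31, 6.49 and 6.06 at P21 and 6.38, 6.77 and 6.48 at P56. Its arrays overlapped between all ages, except that P15 and P56 met only at 6.38, a value repeated to the last digit. Pcdh12 was the only member not called by the F-test over the 4 steps (adjusted p = 0.28, limma). That test called 15821 of the 19500 genes. The endothelial genes Cdh5 and Pecam1 went from 10.33 and 8.22 at P0 to 7.09 and 6.75 at P7 in the same arrays. All Pcdh12 signals, from 6.06 to 6.77, lay close to the lower quartile of the arrays (5.86 to 6.01). Whether Pcdh12 followed the endothelial content was not tested.

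**Figure D2:**
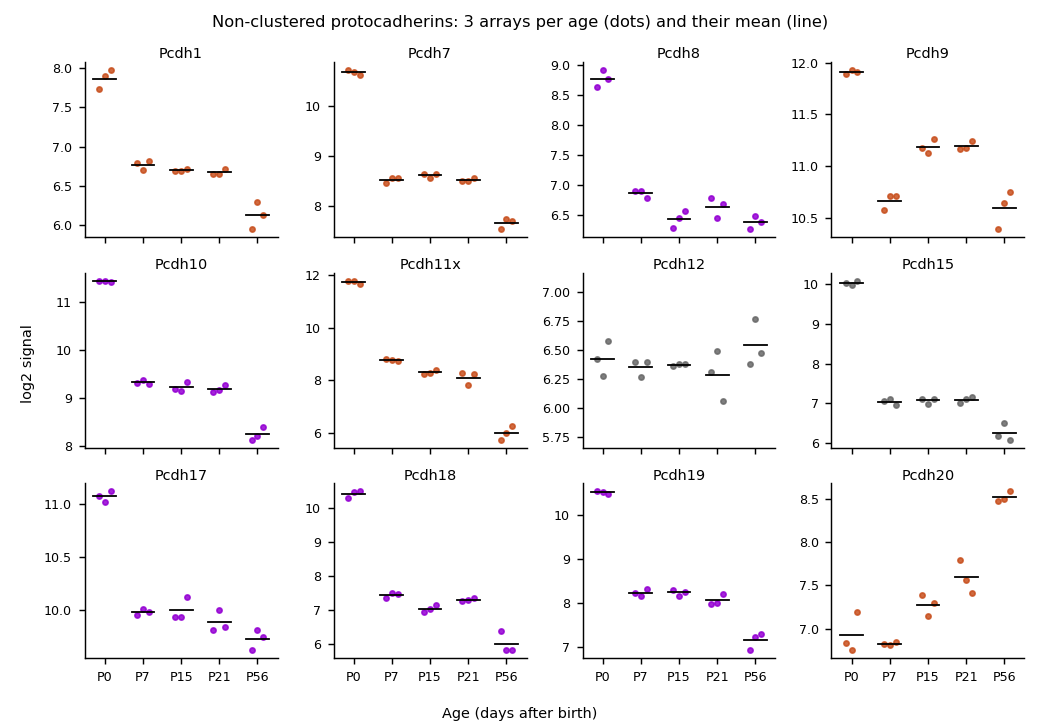
Log2 signal of the 12 non-clustered protocadherins against age, with each dot an array (3 per age) and each line their mean; the y axis is scaled per gene. In 10 panels the P0 dots stand above all others, Pcdh20 rises to P56, and the Pcdh12 dots overlap or meet at all ages.

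After the first week the non-clustered members moved in both directions. From P7 to P15, 2 rose (Pcdh9 and Pcdh20), 3 fell (Pcdh8, Pcdh11x and Pcdh18) and 7 did not pass the test, with changes from -0.46 to 0.52 and a median of 0.01. Among all genes 10.5% were higher and 13.8% lower in this step. From P15 to P21, 0 of 12 passed by limma (2 were higher and 0 lower at an unadjusted p under 0.05), with changes from -0.21 to 0.31, against 10.5% of all genes higher and 6.93% lower. From P21 to P56, 9 fell and 1 rose, with a median of -0.72, against 35.1% of all genes lower and 21.1% higher. Compared with P7, 9 were lower and 1 was higher at P56, against 34.9% and 24.6% of all genes. With array medians set to 0 the split at this last comparison was 7 lower and 3 higher, with a median of -0.45 in place of -0.72.

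The beta cluster followed a different course. Of 22 genes, 17 had their highest mean at P15, 4 at P0 (Pcdhb2, Pcdhb5, Pcdhb7 and Pcdhb20) and 1 at P21 (Pcdhb1, under the lower quartile on all 15 arrays). Over all genes 12.7% were highest at P15, 29.6% at P0 and 13.9% at P21. The lowest mean was at P56 in 19 and at P0 in 3 (Pcdhb9, Pcdhb10 and Pcdhb12), against 29.4% and 42.8% of all genes. All 22 passed the F-test over the 4 steps, but so did 15821 of the 19500 genes. Beta genes are close in sequence and a short probe can read a paralog, so the 22 values may not be independent readings of 22 genes.

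In the first week 2 beta genes rose (Pcdhb9, 0.40, and Pcdhb13, 0.29), 4 fell (Pcdhb2, -0.49; Pcdhb5, -0.41; Pcdhb7, -0.51; Pcdhb20, -0.67) and 16 did not pass, against 34.2% of all genes higher and 27.4% lower. With array medians set to 0, 4 rose and 4 fell. The 4 genes that fell are those with their highest mean at P0. Their falls are small beside those of the non-clustered genes, whose called falls in this week ran from -1.09 to -3.00.

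From P7 to P15, 20 of 22 beta genes rose and 0 fell (21 and 0 at an unadjusted p under 0.05), and in all 22 the P15 arrays lay above the P7 arrays. Over all genes 10.5% were called higher and 13.8% lower, and separation of arrays was not counted over all genes. The changes ran from 0.16 to 0.84 with a median of 0.55, against a median of 0.01 over all genes. Pcdhb1 (0.16, SE 0.08, adjusted p = 0.165) and Pcdhb7 (0.25, SE 0.09, adjusted p = 0.0545) did not pass the test. Leaving out any 1 array left 16 to 21 called. The largest rise was in Pcdhb9, from 8.14, 8.15 and 8.04 at P7 to 9.02, 8.85 and 8.99 at P15 (0.84, SE 0.12, adjusted p = 8.18e-05). Marker lists that moved with it were those of granule cells (7 of 9 higher), with array means of 10.72 to 10.85 at P7 and 11.27 to 11.32 at P15, and of the oligodendrocyte lineage (6 of 9 higher), at 8.97 to 9.12 and then 9.41 to 9.48. Progenitor and cell cycle markers (8 of 8 lower) went from 9.03 to 9.18 down to 7.46 to 7.48, and Purkinje cell markers stayed between 13.08 and 13.24. The part of these cells in the beta rise was not tested.

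From P15 to P21, 8 beta genes fell and 0 rose (17 and 0 at an unadjusted p under 0.05), against 6.93% of all genes lower. The median was -0.34. This count depended on single arrays: it was 3 without P15 replicate 3, 5 without P15 replicate 1 or P21 replicate 2, and 13 without P56 replicate 1 or 3. It was 14 with array medians set to 0. P15 replicate 2 was the lowest of its age in 20 of 22 beta genes, and P21 replicate 1 the highest in 18.

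From P21 to P56 all 22 beta genes were called lower, against 35.1% of all genes. Their arrays did not overlap between these ages, a count that was not made over all genes. The changes ran from -1.72 to -0.30 with a median of -0.92, and 10 genes fell by at least 1. Pcdhb18 read 8.75, 8.95 and 8.64 at P0, 8.49, 8.51 and 8.60 at P7, 9.28, 9.15 and 9.42 at P15, 9.05, 8.88 and 8.86 at P21 and 6.85, 7.30 and 7.47 at P56. It was highest at P15 and well below all earlier ages at P56, with the largest fall of the cluster both after P21 (-1.72, SE 0.13, adjusted p = 4.23e-09) and from P0 to P56 (-1.57, SE 0.13, adjusted p = 3.17e-09). Pcdhb21 read 7.55, 7.40 and 7.72 at P0, 7.55, 7.53 and 7.55 at P7, 8.04, 7.84 and 8.12 at P15, 7.81, 7.40 and 7.63 at P21 and 6.06, 5.93 and 6.59 at P56, where 1 array was under the lower quartile. Its P0 and P7 arrays overlapped, its peak was at P15, and its difference between P56 and P0 was -1.36 (SE 0.14, adjusted p = 1.04e-07). Array P56 replicate 3 was the highest of its age in 18 of 22 beta genes, by a median of 0.32 over the other arrays of that age. Without it all 22 still fell, with a median of -1.04.

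The smallest fall after P21 was in Pcdhb20, which read 8.74, 8.71 and 8.69 at P0, 7.95, 8.09 and 8.09 at P7, 8.61, 8.58 and 8.74 at P15, 8.38, 8.29 and 8.26 at P21 and 7.84, 8.21 and 7.98 at P56. Its arrays fell to P7, came back close to the birth level at P15 and at P56 overlapped those of P7. The fall of -0.30 (SE 0.08, adjusted p = 0.00561) after P21 did not pass with array medians set to 0 (-0.07) or after quantile normalization (-0.01). The counts of beta genes that fell after P21 were 18 and 19 under these scalings.

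At P56 the beta genes were also under their P7 level, with 18 lower and 0 higher (19 and 0 at an unadjusted p under 0.05) against 34.9% of all genes lower, and a median of -0.75. With array medians set to 0, 16 were lower and 1 higher, with a median of -0.49. The 4 that did not pass were Pcdhb5, Pcdhb10, Pcdhb12 and Pcdhb20. The 4 not called between P0 and P56 were Pcdhb1, Pcdhb9, Pcdhb10 and Pcdhb12. Pcdhb9 read 7.79, 7.73 and 7.62 at P0 and 7.69, 7.67 and 7.96 at P56, and Pcdhb12 read 6.75, 6.86 and 6.91 and 6.81, 6.69 and 7.27, so that in both the adult arrays overlapped those at birth. Pcdhb1, the dimmest, was under the lower quartile on all 15 arrays, at 4.93 to 5.63, so its values are not shown to be above background.

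**Figure D3:**
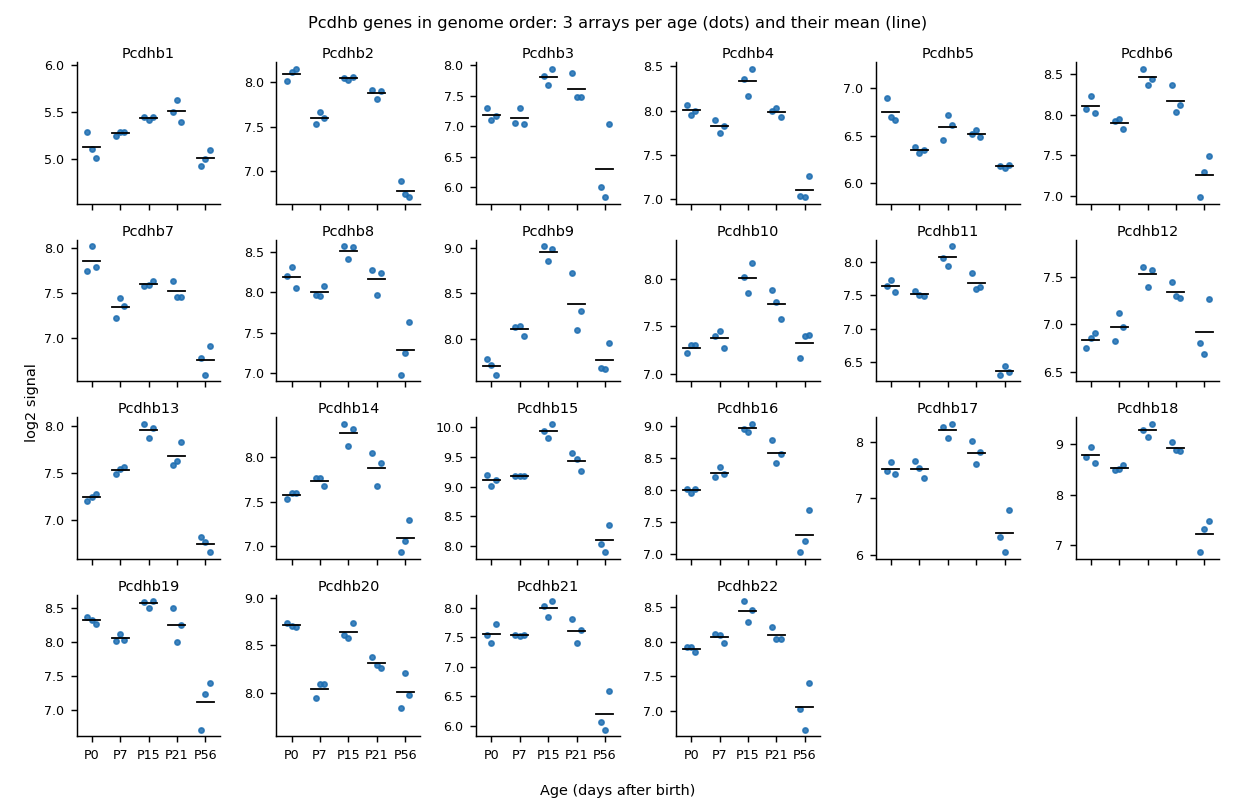
Log2 signal of the 22 Pcdhb genes against age, in genome order, with each dot an array (3 per age) and each line their mean; the y axis is scaled per gene. In 17 panels the mean is highest at P15, and in 19 it is lowest at P56, against 12.7% and 29.4% of all genes.

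Falls after P21 coincided with lower marker signals of several other cell types. Over all genes 35.1% were called lower and 21.1% higher in this step. Oligodendrocyte lineage markers (8 of 9 lower) had array means of 9.57 to 9.82 at P21 and 8.62 to 8.68 at P56, interneuron markers (5 of 8 lower) 9.10 to 9.33 and 8.01 to 8.18, and granule cell markers (5 of 9 lower) 11.18 to 11.36 and 10.77 to 10.98. Purkinje cell markers were at 13.10 to 13.18 and 13.31 to 13.34, with 6 of 11 higher. Also called lower were 6 of 9 endothelial and mural, 5 of 9 meningeal and choroid plexus (1 higher) and 4 of 8 microglial markers. Astrocyte and Bergmann glia markers (5 of 8 lower, 2 higher) and progenitor and cell cycle markers (3 of 8 lower, 2 higher) moved in both directions. The part of any of these cells in the falls of either class of protocadherin was not tested.

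The rise to P15 followed by a fall after P21 was common among clustered members and near the background among non-clustered members. Both calls were made in 20 of 22 clustered genes and in 1 of 12 non-clustered genes (Pcdh9), against 5.95% of all genes. In the plot of the first against the second week, the 22 beta genes are all above 0 for P15 minus P7, and for P7 minus P0 they lie between -0.67 and 0.40. The 10 non-clustered genes that fell lie at or beyond -1.09 for P7 minus P0. Across the 5 age means, the 231 pairs of beta genes had a median Pearson r of 0.88, the 66 pairs of non-clustered genes 0.95, and the 264 pairs across classes 0.27. These correlations describe 5 points that share their arrays.

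**Figure D4:**
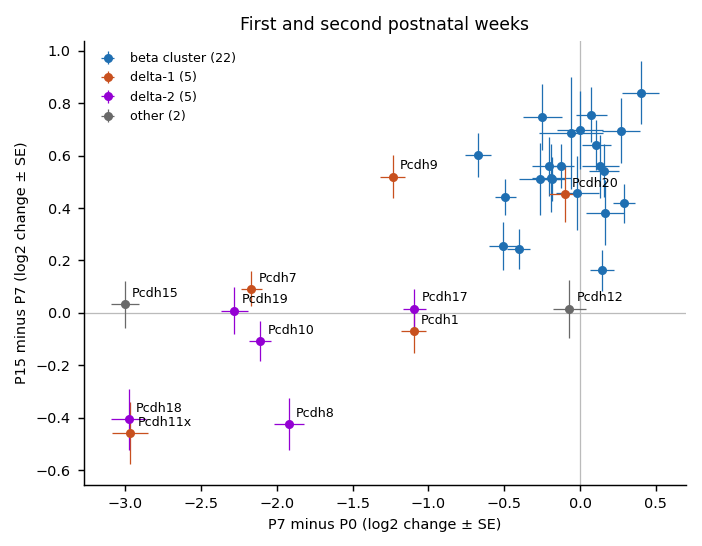
Log2 change from P0 to P7 (x axis) against the change from P7 to P15 (y axis) for the 34 protocadherins, with SE of the fit as bars and colour by group (number of genes in brackets). The 22 beta genes lie above zero on the y axis and between -0.67 and 0.40 on the x axis, and 10 non-clustered genes lie at -1.09 or below on the x axis.

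The beta genes lie in 1 row on chromosome 18, and the 17 genes with their highest mean at P15 are spread from Pcdhb3 to Pcdhb22. The 6 largest rises to P15, from 0.69 to 0.84, were in Pcdhb3, Pcdhb9, Pcdhb15, Pcdhb16, Pcdhb17 and Pcdhb18. The 7 largest falls after P21, from -1.28 to -1.72, were in Pcdhb3, Pcdhb11, Pcdhb15, Pcdhb16, Pcdhb17, Pcdhb18 and Pcdhb21. The 10 measured genes nearest to the row were 5 on each side (Hars, Hars2, Zmat2, Vaultrc5 and Gm6756 before it; Slc25a2, Taf7, Diaph1, Hdac3 and Rell2 after it). From P7 to P15, 0 of 10 rose and 3 fell by limma (0 and 4 at an unadjusted p under 0.05), 0 had their highest mean at P15, and 0 made both calls. Over all genes these shares were 10.5% higher, 13.8% lower, 12.7% highest at P15 and 5.95% with both calls, so a count of 0 among 10 is near the background.

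**Figure D5:**
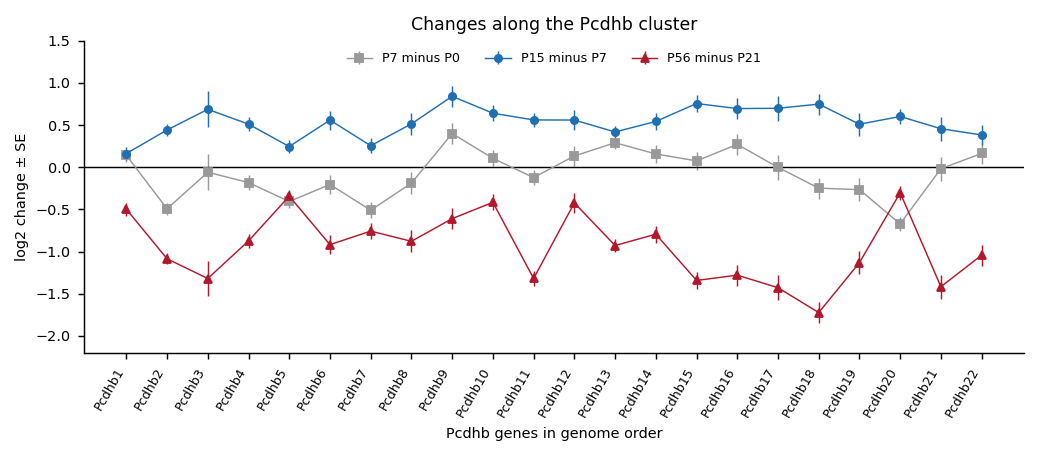
Log2 change (y axis, with SE of the fit as bars) of the 22 Pcdhb genes in their genome order (x axis) for P7 minus P0, P15 minus P7 and P56 minus P21. All P15 minus P7 points are above zero and all P56 minus P21 points are below it.

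Genes that act on or with protocadherins changed in both directions. Of 17 listed symbols for promoter choice and cohesin at the clustered genes, 15 were measured. Wapal, which was not, is an older symbol of Wapl, which was. From P0 to P56, 4 of the 15 measured genes rose and 10 fell, against 40.5% of all genes higher and 34.7% lower. They included Wapl, which releases cohesin from DNA (2.17 ± 0.08, SE, adjusted p = 5.37e-14, limma), and Stag2, a cohesin subunit (1.22 ± 0.10, adjusted p = 2.39e-09). Setdb1, a histone methyltransferase that acts on the clustered genes, fell (-2.10 ± 0.09, adjusted p = 3.39e-13), as did the repressor Rest (-0.91 ± 0.10, adjusted p = 4.28e-07). Ctcf rose by 0.27 ± 0.09 (adjusted p = 0.00902). From P7 to P15, 0 of the 15 rose and 3 fell by limma (0 and 5 at an unadjusted p under 0.05), near the background of 10.5% and 13.8%.

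Of 25 listed signalling and actin partners, 21 were measured, and 6 rose and 13 fell from P0 to P56, against 40.5% and 34.7% of all genes. Marcks, a substrate of protein kinase C that binds actin and lies downstream of gamma protocadherins, fell from 11.97 at P0 to 8.37 at P56 (-3.60 ± 0.12, adjusted p = 2.4e-14). The kinase Ptk2b (Pyk2), which clustered protocadherins inhibit, rose (1.31 ± 0.11, adjusted p = 1.11e-08), while the WAVE protein Wasf2 (-1.21 ± 0.08, adjusted p = 4.71e-10) and the GTPase Rhoa (-1.15 ± 0.06, adjusted p = 9.26e-12) fell. From P7 to P15, 0 of 21 rose and 4 fell by limma (1 and 6 at an unadjusted p under 0.05), against 10.5% and 13.8% of all genes.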

How the data were processed

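The file as deposited gives a log2 signal for each probe set and array, already processed by the authors. Affymetrix Power Tools appears in the submitters' processing notes, without a version. Which algorithm and background correction were used is not given in the sources used here, nor is the log base, which was read as 2 from the range of values (3.15 to 14.08). Of 22092 probe sets, 20996 had 1 symbol in the annotation (year 2016), 91 had several and 1005 were not listed. Values repeated to the last digit on 2 or more arrays occurred in 25.8% of probe sets and 7 members (Pcdhb1, Pcdhb3, Pcdhb14, Pcdhb21, Pcdh7, Pcdh12 and Pcdh18).

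limma 3.58.1 (R 4.3.3) compared ages in a fit of all arrays and probe sets, with a mean per age, no covariate and 10 residual degrees of freedom. Its tests were two-sided, with Benjamini-Hochberg adjustment over all probe sets within a comparison and calls at an adjusted p under 0.05. The comparisons share arrays. Errors beside changes are SE. With 3 arrays per age, an exact permutation test could not go below p = 0.1. No scan batch is given, so batch and age cannot be told apart, and precision is limited by the number of arrays. On simulated data of 22092 probe sets for P56 against P0, the test called 16% of changes of 0.25, 78% of 0.5 and 100% of 1 or more, with 7 false calls. The simulation changed 50 probe sets per size and left all others unchanged, whereas 16647 were called in the measured P56 against P0 comparison. The adjustment for many tests was therefore stricter there, and these rates do not carry over to the measured data.

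Members and gene lists were chosen with earlier results of these data known. Array values are given for all non-clustered members and for the clustered members with the largest P0 to P56 change, and each list names up to 4 called genes with the largest change. Pcdhb1, Pcdhb9, Pcdhb12, Pcdhb20 and Ctcf were singled out after their values were seen. Same-numbered arrays of different ages correlated at r = -0.31 to 0.45 over 30 pairs, 5 of them over 0.1, so the numbers were not used to pair arrays. The alternatives tried were 2 other scalings (quantile, or each array's median at 0), weights per array, another prior, removal of the dimmest 50% of probe sets, other choices of probe set, a replicate block and leaving out each array.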

Additional observations from a re-analysis of the deposited data

How the results depend on the processing

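The changes of single members kept their direction and call in all 204 results under a trended and robust prior and under both other ways of choosing probe sets. Only Pcdh9 has more than 1 probe set, so the choice of probe sets could alter the signal of no other member. The replicate block, which the data do not support as a pairing, gave 9 clustered members lower from P15 to P21 in place of 8 and changed no other call. With array medians set to 0, 175 of 204 results were kept. Clustered members called higher were 4 from P0 to P56, 4 from P0 to P7 and 1 from P7 to P56, and 14 were lower from P15 to P21. Non-clustered members called higher were then 2 from P0 to P56, 2 from P21 to P56 and 3 from P7 to P56. After quantile normalization, 188 results were kept, with 2 clustered members higher from P0 to P56, 1 from P7 to P56, and 2 non-clustered members higher from P21 to P56. With array weights, 192 were kept, with 4 clustered members higher and 9 lower from P0 to P7, and 1 non-clustered member higher from P15 to P21. The share of all genes called was not counted under these settings, and the shares given above for the main fit do not carry over. The cause of these shifts was not tested.

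Direction reversed in 5 results: Pcdhb1 from P0 to P56 (0.20), Pcdh9 (0.19) and Pcdh17 (0.00973) from P7 to P56 with array medians set to 0, and Pcdhb20 from P7 to P56 with array medians set to 0 (0.23) and after quantile normalization (0.26). Removing the dimmest 50% of probe sets left 9 clustered and 6 non-clustered members, so fewer could be called. Pcdh20, the member that rose from P0 to P56, was among those removed, so its rise could not be called here. The filter used the mean over all arrays, so a high signal at P0 helped a member to stay in. The share of all genes called was not counted with this filter. Of the 9 clustered, 8 were lower from P0 to P56, 1 higher and 1 lower from P0 to P7, 9 higher from P7 to P15, 9 lower from P21 to P56 and 8 lower from P7 to P56. Of the 6 non-clustered, 6 were lower from P0 to P56, 6 lower from P0 to P7, 1 higher and 1 lower from P7 to P15, 5 lower from P21 to P56 and 5 lower from P7 to P56, and 0 were called higher from P0, P7 or P21 to P56 by limma. Leaving out 1 array gave 3 to 13 clustered members lower from P15 to P21. It gave 0 to 1 non-clustered members higher from P15 to P21 (1 without P0 replicate 2 or 3, P21 replicate 3 or P56 replicate 1) and 1 to 2 higher from P21 to P56 (2 without P21 replicate 2 or P56 replicate 1). With 1 array left out, single members kept direction and call in 2972 results, passed only then in 38 and no longer passed in 50.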

Other observations

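Most other cadherins on the same arrays were also lower in the adult than at birth. All 18 listed classical and type II cadherins were measured, and 15 fell and 3 rose from P0 to P56, against 34.7% of all genes lower and 40.5% higher, with a median of -1.44. Cdh13, a cadherin held by a lipid anchor, fell by 3.82 (SE 0.07, adjusted p = 1.03e-17, limma), and the type II cadherins Cdh9, Cdh6 and Cdh8 changed by -3.65, -3.60 and -3.10. In the first week 14 of 18 fell and 3 rose, against 27.4% and 34.2% of all genes. Between P7 and P15, 7 rose and 2 fell, against 10.5% and 13.8%.

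Among 13 of 14 large and atypical cadherins, 11 fell and 2 rose from P0 to P56 (34.7% and 40.5% over all genes), with a median of -1.62. Dchs1 and Fat4, a ligand and receptor pair of planar polarity, changed by -4.08 (SE 0.07, adjusted p = 8.02e-18) and -3.82 (SE 0.07, adjusted p = 8.41e-18). Fat3, which shapes dendrites of retinal amacrine cells, changed by -3.55, and Celsr3, which guides axon tracts, by -2.77 (all called). From P7 to P15, 4 rose, 3 fell and 6 did not pass (10.5% higher and 13.8% lower over all genes). The marker signals of other cells at P0 described above bear on these falls too, and their part was not tested.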
